A study of Mus musculus with 18 samples.

Results

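The transforming growth factor beta (TGF-beta) genes described here are the ligands Tgfb1, Tgfb2 and Tgfb3, the receptors Tgfbr1, Tgfbr2 and Tgfbr3, the latent binders Ltbp1 and Ltbp3 and the feedback inhibitor Smad7. They were chosen by name, from their place in the pathway, with earlier results of these data known but by no threshold on a value, and make up 9 of the 34150 genes with a value in each library. All 9 passed the filter on low values. The 18 libraries were made from heart RNA after removal of ribosomal RNA. They are labelled as 6 control, 6 myocardial infarction (MI) and 6 HXP, and each was counted as a separate mouse. By the series title, HXP was a treatment given to mice with acute MI. Not given in the sources used here were the meaning of HXP, its dose, all times, the region of heart sampled, the strain, sex and age of the mice, what procedure the controls underwent and whether every HXP mouse carried an infarct. Levels are in FPKM (fragments per kilobase of gene, scaled to the depth of the library), so that they can be compared between genes on a per-length scale.

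TGF-beta ligands are secreted in a latent form, each dimer held inside its own cleaved propeptide, and latent TGF-beta binding proteins tie that complex to fibrillin microfibrils of the matrix. Integrins that carry the alpha-v chain release the active ligand by pulling on the propeptide, after which the type II receptor encoded by Tgfbr2 recruits and phosphorylates the type I receptor encoded by Tgfbr1, and SMAD2 and SMAD3 carry the signal to the nucleus. In the infarcted heart the pathway is best known for turning fibroblasts into matrix-producing cells, and Smad7 is induced by the signal and shuts the type I receptor down.

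The sequences below show how the ligands differ in their coding parts, and no result on levels or shares was tested against them. In the coding sequences of GENCODE M21 (GRCm38), the propeptide part of Tgfb1 and of Tgfb3 holds codons for arginine, glycine and aspartate in a row, the motif that alpha-v integrins bind. Capitals mark those 3 codons, which begin at codon 244 of 390 in Tgfb1 (exons 4 and 5, chr7:25696995-25697168, plus strand) and at codon 261 of 412 in Tgfb3 (exon 5, chr12:86062147-86062191, minus strand).
Tgfb1: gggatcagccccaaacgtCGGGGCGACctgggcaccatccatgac
Tgfb3: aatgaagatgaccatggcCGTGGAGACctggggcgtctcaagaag
No such run of codons was found in the 442 codons of Tgfb2. Over the last 336 coding bases, which encode the mature growth factor, 73.5% of bases were identical between Tgfb1 and Tgfb3, 70.8% between Tgfb2 and Tgfb3 and 68.8% between Tgfb1 and Tgfb2.

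Promoters, taken as the 250 bases before the RefSeq start on GRCm38.p6, are shown for a ligand that did not pass the test in MI (Tgfb1) and for 4 genes that did (Tgfb2, Tgfbr1, Tgfbr2 and Ltbp3). Of the 9 genes, 6 were matched in the promoter table, with 8 windows. Capitals mark matches, on either strand, to the Smad box (CAGAC), the Sp1 core (GGGCGG) and the TATA box (TATAAA). The AP-1 motif (TGANTCA) was also searched and had no match in these windows, and the matches in the 5 windows printed do not overlap.
Tgfb1 (chr7:25686752-25687001, plus strand): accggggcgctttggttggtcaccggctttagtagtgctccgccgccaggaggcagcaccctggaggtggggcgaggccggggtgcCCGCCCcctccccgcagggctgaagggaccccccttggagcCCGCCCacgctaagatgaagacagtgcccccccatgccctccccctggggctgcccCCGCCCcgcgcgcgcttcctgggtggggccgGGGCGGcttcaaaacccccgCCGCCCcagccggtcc
Tgfb2 (chr1:186705990-186706239, minus strand): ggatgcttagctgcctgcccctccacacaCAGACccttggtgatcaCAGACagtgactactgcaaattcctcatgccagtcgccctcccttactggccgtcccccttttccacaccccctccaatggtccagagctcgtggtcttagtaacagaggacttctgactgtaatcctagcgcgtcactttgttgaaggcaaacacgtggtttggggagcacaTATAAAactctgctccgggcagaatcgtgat
Tgfbr1 (chr4:47352972-47353221, plus strand): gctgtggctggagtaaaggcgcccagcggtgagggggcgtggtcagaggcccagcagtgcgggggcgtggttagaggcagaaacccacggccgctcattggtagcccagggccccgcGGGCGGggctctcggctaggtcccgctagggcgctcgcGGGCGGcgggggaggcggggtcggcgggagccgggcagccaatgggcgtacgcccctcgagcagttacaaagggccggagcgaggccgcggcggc
Tgfbr2 (chr9:116175364-116175613, minus strand): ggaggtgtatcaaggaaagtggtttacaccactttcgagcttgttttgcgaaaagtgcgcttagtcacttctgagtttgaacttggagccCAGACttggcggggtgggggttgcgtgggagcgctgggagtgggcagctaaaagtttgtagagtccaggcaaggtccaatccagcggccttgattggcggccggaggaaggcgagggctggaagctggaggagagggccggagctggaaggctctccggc
Ltbp3 (chr19:5740650-5740899, plus strand): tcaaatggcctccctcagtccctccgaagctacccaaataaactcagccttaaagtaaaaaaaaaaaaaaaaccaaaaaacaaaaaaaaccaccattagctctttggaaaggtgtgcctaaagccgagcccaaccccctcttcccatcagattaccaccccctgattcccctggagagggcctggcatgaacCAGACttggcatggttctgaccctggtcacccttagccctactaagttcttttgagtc
The Tgfb1 window held 5 Sp1 cores, no Smad box and no TATA box, with 75.2% G and C, and the Tgfbr1 window was alike, with 2 Sp1 cores, no Smad box and 74.8% G and C. The Tgfb2 window held 2 Smad boxes and 1 TATA box with 53.6% G and C, and the Tgfbr2 and Ltbp3 windows held 1 Smad box each. Of the windows not printed, the other one of Tgfbr1 (52.8% G and C) and one of Ltbp1 held 1 Smad box and the other of Ltbp1 held 2. Over 32851 windows of the same length, 42.2% held a Smad box, 32.7% an Sp1 core, 12.4% a TATA box and 6.75% an AP-1 motif, and the median share of G and C was 52.4%. A match is a run of letters and says nothing of binding.

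Libraries were 75.6 to 81.0 M reads deep, a depth worked out from the steps between values, and 9888 to 12820 genes reached 1 FPKM in them. All 8 cardiomyocyte markers were at 1 FPKM or more in each of the 18 libraries. The mitochondrial chromosome gave 29.9% to 34.7% of control reads, 16.6% to 27.4% of MI reads and 16.6% to 36.8% of HXP reads. Library MI 5 also held lung epithelial markers (summed level 1176 FPKM over 7 genes, against at most 1.95 FPKM in the other MI libraries), and MI 4 skeletal muscle markers (79.7 FPKM over 8 genes, against at most 6.41 FPKM). In HXP 5 and HXP 6, genes rich in G and C were lower against control than genes poor in them (of 5 bins of G and C content, the medians of the top and bottom bin differed by -0.34 and -0.53 on the log2 scale, and by at most 0.04 either way in the controls). The trend ran the other way in MI 3 (0.30), MI 5 (0.27), HXP 1 (0.20), MI 4 and MI 6 (0.15 each), and in the other libraries it was -0.09 to 0.04. The library numbers in the file headers form 3 runs, of 3 (control 2 and 5, MI 5), 5 (control 1, HXP 1, 3, 4 and 6) and 10 libraries. MI and HXP libraries meet only in the run of 10. Counts of genes called are given with and without some of the libraries named here.

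The comparison of MI with control shows how the pathway genes stood in the infarcted heart. Of the 9 genes 8 rose, by log2 fold changes of 0.33 to 2.79, and none fell. Across all 13710 genes tested, 40.1% were called higher and 3.21% lower by the same test, and the median log2 fold change was 0.27. The ligand gene Tgfb3 and the latent binder gene Ltbp3 had the largest fold changes of the 9. Tgfb1, the ligand most often studied, was the gene that did not pass in this fit, though it did in some others. Fold changes are differences of log2(FPKM + 1) fitted by limma over the 3 groups, and adjusted p-values are Benjamini-Hochberg values over all genes tested, with a threshold of 0.05.

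Tgfb3 (ENSMUSG00000021253, chr12:86056745-86079041, minus strand) encodes the third ligand, which binds the type II receptor directly as TGF-beta 1 does. Its level ran from 3.58 to 4.396 FPKM in the controls (median 4.005), and from 12.1 to 60.04 FPKM in MI (median 35.7). Every MI library lay above every control, and MI 6 was the lowest of the MI group by a wide gap. The mean of 36.6 ± 15.7 FPKM in MI against 3.97 ± 0.289 FPKM in control (SD, 6 libraries each) was 9.22 times as high, and the log2 fold change was 2.79 (limma adjusted p = 0.0127, SE 0.50). Tgfb2 (ENSMUSG00000039239, chr1:186622792-186705989, minus strand), whose product needs the co-receptor encoded by Tgfbr3 for efficient binding, ran from 1.57 to 1.89 FPKM in control (median 1.73) and from 3.18 to 12.5 FPKM in MI (median 6.15). The groups did not overlap, and the log2 fold change was 1.40 (limma adjusted p = 0.0143, SE 0.33). Tgfb1 (ENSMUSG00000002603, chr7:25687002-25705077, plus strand), the ligand made by platelets, macrophages and many other cells, ran from 2.79 to 4.56 FPKM in control (median 3.76) and from 3.76 to 9.86 FPKM in MI (median 5.71). In 5 of 6 MI libraries it lay above every control, and MI 6, at 3.76 FPKM, lay among them. Its log2 fold change of 0.65 (SE 0.28, 95% confidence interval 0.06 to 1.24) did not pass (limma adjusted p = 0.0652). That call turned on the HXP libraries in the fit and on MI 6. With only MI and control fitted, Tgfb1 passed at the same fold change (limma adjusted p = 0.00904) and so did all 9 genes, where 53.9% of all genes were called higher. It also passed without HXP 3 (limma adjusted p = 0.0350), HXP 6 (0.0288), HXP 5 and HXP 6 (0.0160) or MI 6 (0.0352), and in 27 of 33 other settings it did not.

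Both signalling receptors rose. Tgfbr2 (ENSMUSG00000032440, chr9:116084293-116175360, minus strand), the type II kinase, stood at 5.73 to 6.60 FPKM in control (median 6.39) and at 8.996 to 25.7 FPKM in MI (median 17.5). The log2 fold change of Tgfbr2 was 1.29 (limma adjusted p = 0.0146, SE 0.32). Tgfbr1 (ENSMUSG00000007613, chr4:47353222-47414931, plus strand), the type I kinase also called ALK5, stood at 2.33 to 3.30 FPKM in control (median 3.02) and at 4.07 to 13.0 FPKM in MI (median 8.21), and the log2 fold change was 1.21 (limma adjusted p = 0.0254, SE 0.39). For both kinases every MI library lay above every control, with MI 5 highest and MI 6 lowest. Tgfbr3 (ENSMUSG00000029287, chr5:107106570-107289629, minus strand) encodes betaglycan, a co-receptor without a kinase that presents ligand to the type II receptor. It moved far less, from 5.76 to 7.58 FPKM in control (median 6.78) to 7.15 to 10.6 FPKM in MI (median 8.30), and MI 4 lay within the control range. Its log2 fold change of 0.33 (limma adjusted p = 0.0388, SE 0.12) was close to the median of all genes, and with libraries scaled to their median ratio it was -0.01 (limma adjusted p = 0.967). The call of Tgfbr3 was lost in 19 of 34 other settings, among them without control 1, 2, 3, 4 or 5 or without MI 1, 2, 3 or 5, 1 at a time, with limma adjusted p-values of 0.0517 to 0.0870. That of Tgfbr1 was lost without control 2, MI 2 or MI 5 (0.0501 to 0.0633).

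The latent binders differed from each other in the same way. Ltbp3 (ENSMUSG00000024940, chr19:5740904-5758532, plus strand), whose product can bind the latent complex of all 3 ligands, stood at 4.91 to 7.06 FPKM in control (median 6.34) and at 11.2 to 67.9 FPKM in MI (median 28.7). All MI libraries were above all controls, and MI 5 stood far above the other 5. Ltbp3 rose by 2.08 on the log2 scale (limma adjusted p = 0.0149, SE 0.54). Ltbp1 (ENSMUSG00000001870, chr17:75005568-75392512, plus strand), the binder that anchors the latent complex to fibrillin and fibronectin, stood at 4.36 to 5.61 FPKM in control (median 4.78) and at 5.62 to 9.05 FPKM in MI (median 6.61). The groups did not overlap, though the lowest MI value lay just above the highest control. Its log2 fold change was 0.39 (limma adjusted p = 0.0210, SE 0.12), and 0.07 under median-ratio scaling (limma adjusted p = 0.530).

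Smad7 (ENSMUSG00000025880, chromosome 18), which blocks the activated type I receptor and marks it for degradation, stood at 1.81 to 2.74 FPKM in control (median 2.47) and at 3.88 to 10.2 FPKM in MI (median 5.91). The groups did not overlap. Smad7 rose by 1.06 on the log2 scale (limma adjusted p = 0.0139, SE 0.24).

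**Figure D1:**
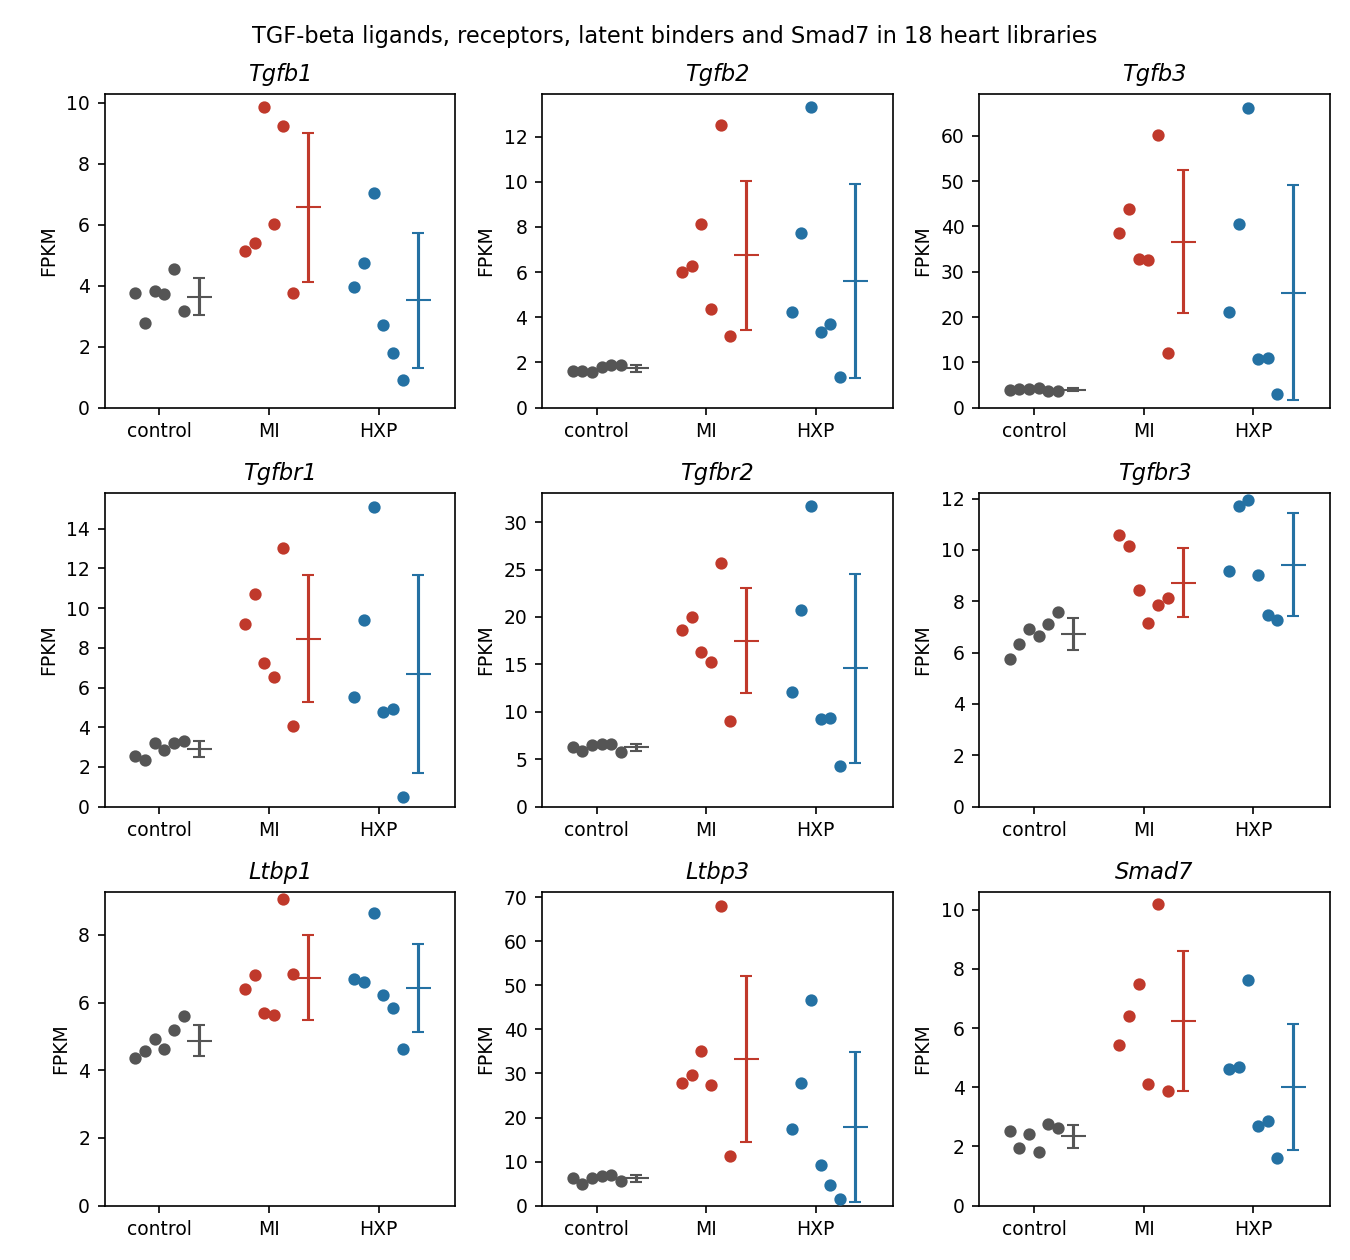
Level of each of the 9 genes in FPKM (vertical axes from 0) in the 6 control, 6 MI and 6 HXP libraries, 1 point a library, with the mean and SD of each group beside the points. Control points lie close together in each panel, whereas MI Tgfb3 runs from 12.1 to 60.04 FPKM and HXP Tgfb3 from 3.11 to 66.1 FPKM.

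For 7 of the 9 genes (not Tgfb1 and Tgfbr3) every MI library was above every control, which held for 27.9% of all genes tested. Median-ratio scaling moved the median of all genes in MI against control from 0.27 to 0.00 and the genes called from 5494 higher and 440 lower to 2395 higher and 2068 lower. Under it 6 of the 9 genes rose (Tgfb2, Tgfb3, Tgfbr1, Tgfbr2, Ltbp3 and Smad7), where 17.5% of all genes were called higher, and Tgfb3 still stood 2.45 and Ltbp3 1.74 above control on the log2 scale. Without MI 5, the library with lung markers, 5 of the 9 passed against 18.4% of all genes, since Tgfbr1, Tgfbr3 and Ltbp1 had limma adjusted p-values of 0.0553 to 0.0633. Without MI 4 and MI 5 no gene of the 13710 was called by limma (5998 had an unadjusted p below 0.05). The 9 log2 fold changes were then 0.34 to 2.58, with limma adjusted p-values of 0.0555 to 0.194. Within the run of 10 libraries, of which 3 are controls and 5 MI, only Tgfb3 was called, with 0.54% of all genes called higher.

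In bulk tissue, a change in the number of cells of a type and a change in RNA per cell cannot be told apart. The summed level of 10 fibroblast markers was 424.2 to 551.2 FPKM in control and 732.5 to 2623 FPKM in MI, and that of 10 macrophage markers was 161.0 to 223.5 FPKM in control and 241.5 to 1093 FPKM in MI. Both sums were lowest in MI 6 and highest in MI 5, as were 7 of the 9 genes each. Endothelial markers (9 genes) ran from 123.4 to 197.6 FPKM in control and 190.4 to 222.8 FPKM in MI, and cardiomyocyte markers from 11650 to 13060 FPKM and 10030 to 13060 FPKM. The part of these cell types in the result was not tested.

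The make-up of each class changed along with its level. Shares of summed FPKM within a library do not depend on how that library is scaled. A trend with G and C content can move them, and they were not corrected for it. Shares were compared by exact permutation tests over all regroupings of the 12 libraries compared, two-sided, with p-values adjusted over 21 tests, of which 9 passed. Within a class a gain of any gene is a loss among the others, so the tests are not independent. Summed over the 3 ligands, the level was 49.96 ± 20.3 FPKM in MI against 9.36 ± 0.671 FPKM in control (SD, 6 libraries each).

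In MI most of the ligand signal was Tgfb3, and in control hearts Tgfb1 and Tgfb3 stood close together on the deposited scale, though not with another gene length. The share of Tgfb3 was 36.6% to 48.4% in control (median 42.5%) and 63.6% to 78.9% in MI (median 74.6%). The difference of 29.7 percentage points was in the same direction in 6 of 6 MI libraries (exact permutation p = 0.00217, which is the lowest p these regroupings allow, adjusted 0.00758). The share of Tgfb1 fell from a median of 38.9% to 12.7%, below every control in 6 of 6 (mean difference -24.7 points, exact permutation adjusted p = 0.00758). Tgfb1 thus lost share although its mean level was 1.80 times as high in MI. The share of Tgfb2 fell from 18.6% ± 1.81 to 13.6% ± 2.72 (SD, 6 libraries each, exact permutation adjusted p = 0.0114), although its level rose.

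Among the receptors, the kinases gained share and betaglycan lost it. Tgfbr3 made up 42.3% ± 2.14 of receptor FPKM in control and 26.5% ± 6.95 in MI (SD, 6 libraries each), lower than every control in 6 of 6 libraries (exact permutation adjusted p = 0.00758). Tgfbr2 went from 39.5% ± 2.85 to 49.8% ± 4.38 (exact permutation adjusted p = 0.0114) and Tgfbr1 from 18.2% ± 1.39 to 23.7% ± 3.08 (exact permutation adjusted p = 0.0152), each above every control in 5 of 6 MI libraries. Of the latent binder signal, Ltbp1 made up 40.4% to 50.3% in control (median 42.9%) and 11.8% to 38.1% in MI (median 17.9%), a difference of -24.6 points (exact permutation adjusted p = 0.00758). In MI 6 its share of 38.1% lay just under the lowest control.

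**Figure D2:**
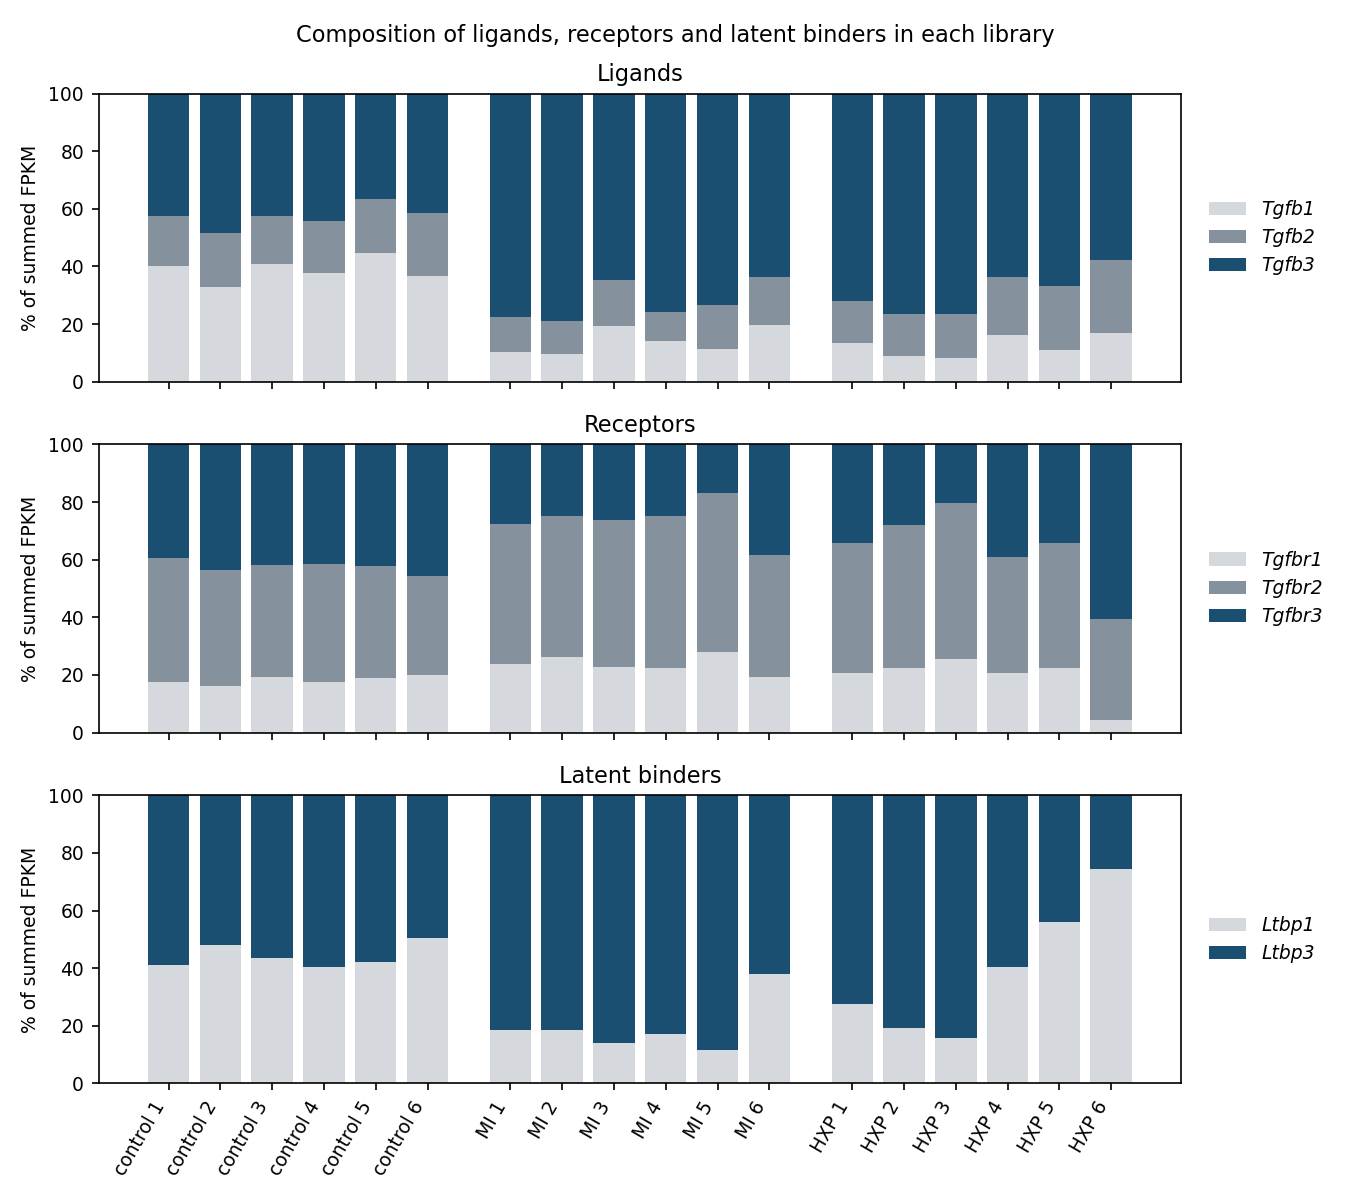
Share of the summed FPKM of the 3 ligands, the 3 receptors and the 2 latent binders (vertical axes, 0 to 100%) taken by each gene in each of the 18 libraries, 1 stacked bar a library. Tgfb3 takes 36.6% to 48.4% of ligand FPKM in the controls and 57.9% to 78.9% in the other 12 libraries, and Ltbp1 takes 74.4% of latent binder FPKM in HXP 6.

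Shares between genes rest on the gene length behind each FPKM value. The merged exons of Tgfb1 cover 5042 bases and its longest coding transcript 2175 bases, whereas both are 3383 bases for Tgfb3. With the length of the longest coding transcript in place of the merged exons, Tgfb1 stood at 8.45 ± 1.42 and Tgfb3 at 3.97 ± 0.289 rescaled FPKM in control (SD, 6 libraries each), so that Tgfb1 made up 58.4% ± 4.197 of the ligand signal and Tgfb3 27.9% ± 3.399. In MI Tgfb3 made up 60.4% ± 8.35 and Tgfb1 26.8% ± 7.14 on that scale. With that length the share of Tgfb3 was 32.6 points higher in MI (exact permutation adjusted p = 0.00758) and that of Tgfb1 differed by -31.6 points (exact permutation adjusted p = 0.00758). The lower share of Tgfb2 in MI did not pass with it (-1.03 points, exact permutation adjusted p = 0.449).

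HXP hearts were compared with MI hearts to ask what the treatment changed, and with control hearts to ask what remained. The comparisons share libraries, so their values are set side by side and not correlated. By limma none of the 9 genes passed in HXP against MI, where 0% of all genes were called (1891 had an unadjusted p below 0.05). Under median-ratio scaling, where 0.0146% of all genes were called higher and 0.0219% lower, none of the 9 passed either. None passed in HXP against control, where 0.0948% of all genes were called higher and 0.219% lower (4541 had an unadjusted p below 0.05). Of the 9, 3 had an unadjusted p below 0.05 against MI (Tgfb1, Ltbp3 and Smad7) and 5 against control (Tgfb2, Tgfb3, Tgfbr2, Tgfbr3 and Ltbp1), and voom on the recovered reads called 0 in both comparisons. The median log2 fold change of the 9 genes was -0.54 against MI and 0.67 against control, and that of all genes -0.12 and 0.16.

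The HXP libraries spread more widely than either other group, though by less for Ltbp1 and Tgfbr3. Coefficients of variation in MI and HXP were 18.6% and 20.4% for Ltbp1, and 15.55% and 21.3% for Tgfbr3. Tgfb3 stood at 21.03, 40.4, 66.1, 10.7, 11.02 and 3.11 FPKM in HXP 1 to 6, so that HXP 3 lay above every MI library and HXP 6 below every control. The coefficient of variation of Tgfb3 was 7.27% in control, 42.9% in MI and 93.5% in HXP. Against MI, its log2 fold change of -0.92 (SE 0.50, 95% confidence interval -1.98 to 0.14) did not pass (limma adjusted p = 0.405), and against control it was 1.87 (limma adjusted p = 0.0870, SE 0.50). Tgfb2 had a median of 3.98 FPKM in HXP (1.35 to 13.3), with log2 fold changes of -0.36 against MI (95% confidence interval -1.06 to 0.34, limma adjusted p = 0.587) and 1.04 against control (limma adjusted p = 0.0925). In 5 of 6 HXP libraries Tgfb2 and Tgfb3 were above every control, and under median-ratio scaling both passed against control, at 0.87 (limma adjusted p = 0.0414) and 1.67 (limma adjusted p = 0.0241), where 3.82% of all genes were called higher.

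Tgfb1 had the smallest adjusted p of the 9 in HXP against MI. It stood at 3.95, 4.74, 7.04, 2.72, 1.79 and 0.906 FPKM in HXP 1 to 6, 3 of them below every MI library, the same 3 of them below every control. Its log2 fold change was -0.84 against MI (SE 0.28, 95% confidence interval -1.43 to -0.25), and it did not pass (limma adjusted p = 0.260). Against control the difference was -0.18 (95% confidence interval -0.77 to 0.41, limma adjusted p = 0.651). Ltbp3 had the largest point difference from MI, -1.28 (95% confidence interval -2.42 to -0.14, limma adjusted p = 0.334), with 17.4, 27.9, 46.6, 9.18, 4.602 and 1.59 FPKM in HXP 1 to 6. The last 2 of these lay below every control, and the difference from control was 0.81 (limma adjusted p = 0.284). Smad7 ran from 1.62 to 7.62 FPKM in HXP (median 3.74), -0.57 against MI (95% confidence interval -1.09 to -0.06, limma adjusted p = 0.334) and 0.49 against control (limma adjusted p = 0.165).

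The receptor kinases followed the same libraries. Tgfbr2 stood at 4.24 to 31.8 FPKM in HXP (median 10.8), with log2 fold changes of -0.43 against MI (limma adjusted p = 0.517) and 0.86 against control (limma adjusted p = 0.105). Tgfbr1 stood at 5.497, 9.41, 15.1, 4.77 and 4.90 FPKM in HXP 1 to 5 and at 0.510 FPKM in HXP 6, so that 5 libraries lay above every control and 1 far below. Its log2 fold changes were -0.54 against MI (limma adjusted p = 0.505) and 0.67 against control (limma adjusted p = 0.226). Tgfbr3 stood at 7.27 to 11.9 FPKM (median 9.10), the only one of the 9 with a higher fitted value in HXP than in MI, by 0.09 (95% confidence interval -0.16 to 0.34, limma adjusted p = 0.707), and at 0.42 against control (limma adjusted p = 0.0881). Ltbp1 stood at 4.63 to 8.64 FPKM (median 6.41), at -0.06 against MI (limma adjusted p = 0.796), a sign that turned under quantile, median-ratio and non-mitochondrial scaling, and at 0.32 against control (limma adjusted p = 0.102).

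**Figure D3:**
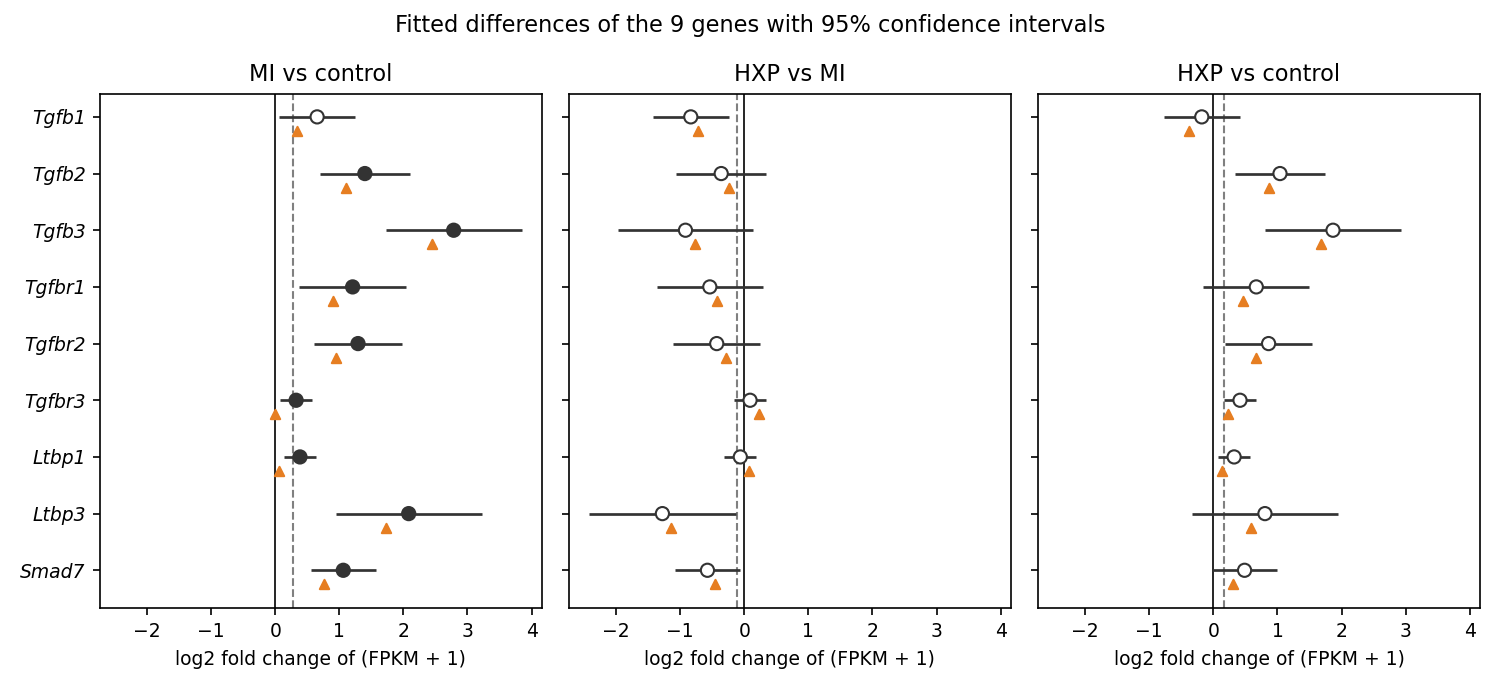
Fitted log2 fold change of (FPKM + 1) on the horizontal axis for the 9 genes in MI against control, HXP against MI and HXP against control, with 95% confidence intervals, filled where limma called the gene and open where not. Triangles give the value under median-ratio scaling and dashed lines the median of all 13710 genes, and 8 filled circles stand in the first panel and 0 in the other panels.

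The same libraries were at the ends of the HXP range throughout. HXP 3 was the highest and HXP 6 the lowest of the HXP group for 9 of 9 genes, and in the MI group MI 5 was highest and MI 6 lowest for 7 of 9 each. Against the control mean, the median over the 9 genes on the log2 scale was 0.75, 1.42, 2.04, 0.50, 0.22 and -0.35 in HXP 1 to 6, and 0.46 to 1.85 in MI. All 9 genes were above every control in HXP 2 and HXP 3, 8 in HXP 1, 7 in HXP 4, 6 in HXP 5 and 0 in HXP 6. For 0 of the 9 genes were all 6 HXP libraries above every control, which held for 1.13% of all genes tested. In HXP 6, 7 of the 9 were below every control, and Ltbp1 and Tgfbr3 lay within the control range. The share of all genes beyond every control was not worked out for single libraries, nor the share of all genes highest or lowest in a given library. Over the 5 bins of G and C content, medians of the genes tested against control ran from 0.41 to 0.51 in HXP 3 (log2 scale). In HXP 6 these medians ran from -0.52 to 0.01.

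The fibroblast marker sum moved with these libraries. It was 3174 FPKM in HXP 3 and 250.5 FPKM in HXP 6, against 424.2 to 551.2 FPKM in control. Macrophage markers were at 953.7 FPKM in HXP 3 and 105.1 FPKM in HXP 6, and mesothelial markers (6 genes) ran from 0.463 FPKM in HXP 6 to 104.4 FPKM in HXP 2. HXP 6 also had the highest mitochondrial share, 36.8%, and the strongest trend with G and C content. The part of cell types, RNA quality and G and C content in these differences was not tested.

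The counts for HXP against control depended on HXP 6 and on the scaling. Without HXP 6, 8 of the 9 genes passed (all but Tgfb1), where 28.1% of all genes were called higher, and without HXP 5 and HXP 6 the same 8 passed against 40.9% of all genes. With all libraries kept, 2 of the 9 passed under quantile normalization (3.93% of all genes called higher), and 1 each under non-mitochondrial scaling (2.7%) and after a correction for G and C content (3.82%). Against MI none of the 9 passed without HXP 6 or without HXP 5 and HXP 6, and without HXP 5 and HXP 6 the median log2 fold change of the 9 was -0.01. Leaving out HXP 3, the highest of the HXP group, moved the values the other way, to a median of -0.75 against MI and 0.39 against control, and none passed (lowest limma adjusted p 0.0770 against MI). Within the run of 10 libraries, which holds 2 of the HXP group, the median log2 fold change of the 9 was -0.12 against MI and 0.81 against control, and none was called.

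**Figure D4:**
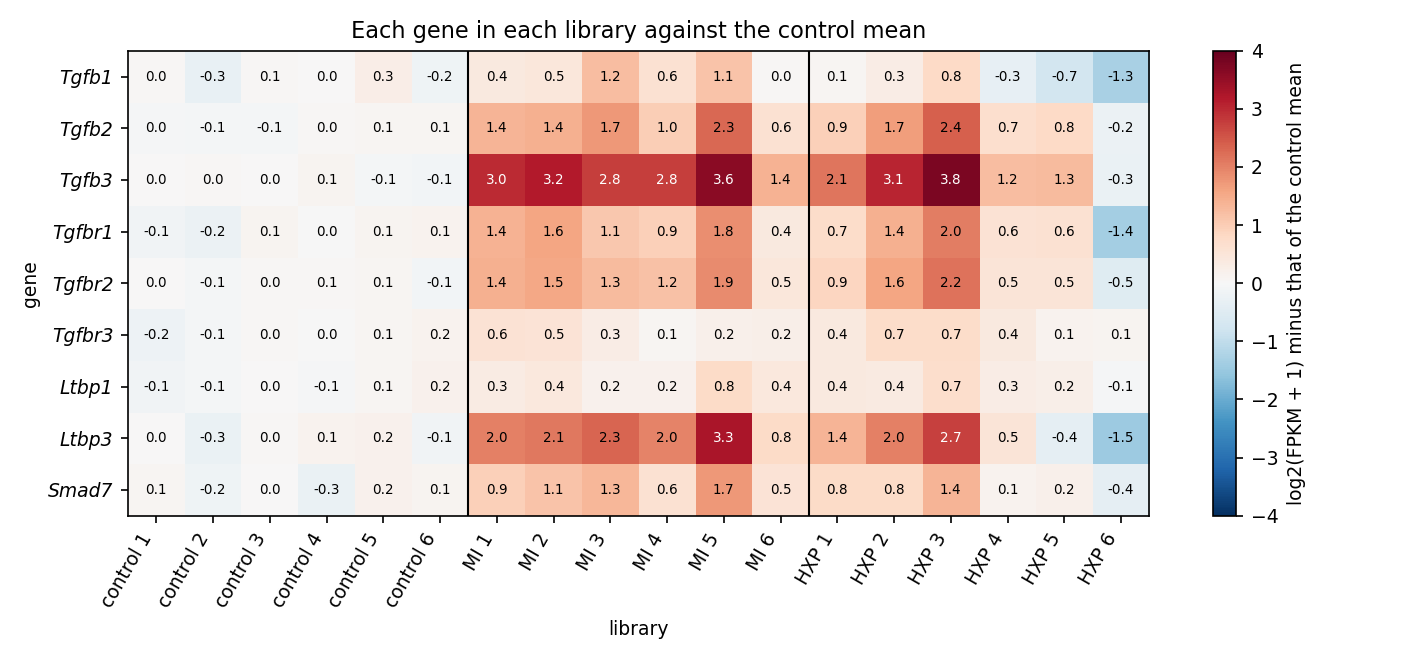
Difference of log2(FPKM + 1) from the control mean for each of the 9 genes (rows) in each of the 18 libraries (columns), with the value printed in each cell and red for higher. HXP 3 is the reddest HXP column, with a median of 2.04, and HXP 6 is mostly blue, with a median of -0.35.

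The ligand make-up of HXP hearts stayed apart from that of controls in all 6 libraries. Tgfb3 made up 57.9% to 76.5% of ligand FPKM in HXP (median 69.3%), 26.3 percentage points above control and above every control in 6 of 6 (exact permutation adjusted p = 0.00758). Tgfb1 made up 8.14% to 16.9% (median 12.2%), below every control in 6 of 6 (mean difference -26.3 points, exact permutation adjusted p = 0.00758). This held in HXP 6, where the Tgfb3 level of 3.11 FPKM was below every control and the Tgfb1 level of 0.906 FPKM was too, and the share of Tgfb3 was 57.9% against at most 48.4% in control. Leaving out 1 library at a time, the mean difference of Tgfb3 from control stayed between 24.7 and 28.5 points.

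Between HXP and MI no share passed. The difference of Tgfb3 was -3.45 points (exact permutation adjusted p = 0.484), and the lowest adjusted p was that of Tgfb2, 18.7% ± 4.54 in HXP against 13.6% ± 2.72 in MI (SD, 6 libraries each, exact permutation p = 0.0433, adjusted 0.0909). The share of Ltbp1 spanned 15.6% to 74.4% in HXP (median 34.1%), and that of Tgfbr3 20.3% to 60.5% (median 34.3%). Neither passed against control (exact permutation adjusted p = 0.653 and 0.409). Both were highest in HXP 6 and lowest in HXP 3. The longest transcript of Ltbp1 has 52.7% G and C and that of Ltbp3 58.3%. The part of G and C content in the shares was not tested. Without HXP 6 all 3 receptor shares passed against control, Tgfbr3 at -11.1 points in place of -6.22 (exact permutation adjusted p = 0.00568), Tgfbr1 at 4.16 in place of 1.13 (exact permutation adjusted p = 0.00568) and Tgfbr2 at 6.94 (exact permutation adjusted p = 0.0341), and Ltbp1 did not (-12.5 points, exact permutation adjusted p = 0.175).

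Other genes of the pathway were read from lists chosen by their place in it. Of 56 genes, 55 were tested (the repressor gene Tgif2, at a mean of 0.413 FPKM, was under the filter). In MI 45 of the 55 rose and 1 fell, with a median log2 fold change of 1.19, against 40.1% and 3.21% of all genes and a median of 0.27. Under median-ratio scaling 35 rose and 3 fell, with a median of 0.87, against 17.5% and 15.1% of all genes. Without MI 5, 31 rose and 0 fell, where 18.4% of all genes were called higher, and without MI 4 and MI 5 none was called.

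Among 19 genes of the latent complex and its activation, 15 rose and 1 fell in MI, against 40.1% and 3.21% of all genes. Under median-ratio scaling 12 rose and 1 fell, against 17.5% and 15.1% of all genes. Without MI 5, 10 rose and 0 fell, where 18.4% of all genes were called higher. The largest change was in Ltbp2, a relative of Ltbp1 and Ltbp3 that does not bind the latent ligand, at 37.9 ± 26.5 FPKM in MI against 0.281 ± 0.103 FPKM in control by mean and SD of 6 libraries (log2 fold change 4.603, limma adjusted p = 0.0127, SE 0.74). Thbs1, whose product thrombospondin 1 can activate the latent complex, rose by 4.25 (limma adjusted p = 0.0127, SE 0.78) and Fbn2, a microfibril fibrillin, by 1.00 (limma adjusted p = 0.0127, SE 0.15) on the log2 scale. Itgb6, the integrin chain that activates latent TGF-beta on epithelia, was the gene that fell, from 2.57 ± 0.565 FPKM to 1.71 ± 0.4004 FPKM by mean and SD of 6 libraries (log2 fold change -0.40, limma adjusted p = 0.0395, SE 0.15). Without MI 5 the call of Itgb6 was lost.

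Of 4 other receptors and co-receptors 2 rose, a share near the 40.1% of all genes. Cd109, a membrane-anchored co-receptor that dampens the signal, rose by 1.38 (limma adjusted p = 0.0139, SE 0.31) and Acvrl1, the endothelial type I receptor ALK1, by 1.19 (limma adjusted p = 0.0144, SE 0.29). Of 15 SMAD genes and regulators 11 rose and 0 fell, against 40.1% and 3.21% of all genes. Under median-ratio scaling 4 rose and 2 fell, a count near the 17.5% and 15.1% of all genes, and without MI 5, 4 rose, near the 18.4% of all genes. The 3 with the smallest p were Pmepa1 (2.04, limma adjusted p = 0.0139, SE 0.42), which keeps SMAD2 and SMAD3 from the receptor, Skil (1.02, limma adjusted p = 0.0139, SE 0.23), which encodes the SMAD repressor SnoN, and the corepressor gene Tgif1 (1.19, limma adjusted p = 0.0146, SE 0.29).

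All 18 genes listed as known targets rose in MI, with a median log2 fold change of 3.43, where 40.1% of all genes were called higher. All 18 rose under median-ratio scaling (17.5% of all genes), and 16 rose without MI 5 (18.4% of all genes). With Ltbp2, which is in this list too, Postn (4.20, SE 0.69), the matrix protein periostin, and Lox (3.86, SE 0.65), a collagen crosslinking enzyme, had the smallest p, each with a limma adjusted p of 0.0127. Of these targets Col1a1 and Col1a2 are also among the 10 fibroblast markers above, and Acta2 and Tagln among 10 smooth muscle markers, which summed to 283.9 to 350.3 FPKM in control and 357.5 to 533.2 FPKM in MI.

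In HXP 0 of the 55 other genes passed by limma against MI or against control. At an unadjusted p below 0.05 were 17 and 30 of them, and 1891 and 4541 of all 13710 genes. Under median-ratio scaling 0 passed against MI, and 17 were higher and 2 lower than control, where 3.82% of all genes were called higher and 5.42% lower. Against MI 53 of 55 fitted values were below 0 (median -0.59, all genes -0.12). Against control 50 of 55 were above 0 (median 0.58, all genes 0.16). The share of all genes with these signs was not worked out. From each list the 2 genes with the smallest p against MI are given here. In the latent complex list they were Fbn2 (-0.59, limma adjusted p = 0.235) and Furin (-0.70, limma adjusted p = 0.251), the protease that cleaves the ligand from its propeptide. Among SMAD genes and regulators they were Smad6 (-1.13, limma adjusted p = 0.251), an inhibitory SMAD like Smad7, and Pmepa1 (-1.03, limma adjusted p = 0.323). Acvrl1 (-0.77) and Eng (-0.45) among the receptors and Lox (-1.48) and Col1a1 (-1.76) among the targets had limma adjusted p-values of 0.309 to 0.359. Against control, the genes with the smallest p in their lists included Postn (3.07, limma adjusted p = 0.0528), Ltbp2 (3.07, limma adjusted p = 0.0676), Mmp2 (1.87, limma adjusted p = 0.0881), Skil (0.73), Tgif1 (0.88), Cd109 (0.92) and Acvrl1 (0.42), the last 4 with limma adjusted p-values of 0.0900 to 0.294. Without HXP 6, 32 of the 55 rose and 1 fell against control, where 28.1% of all genes were called higher and 2.78% lower, and none passed against MI.

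**Figure D5:**
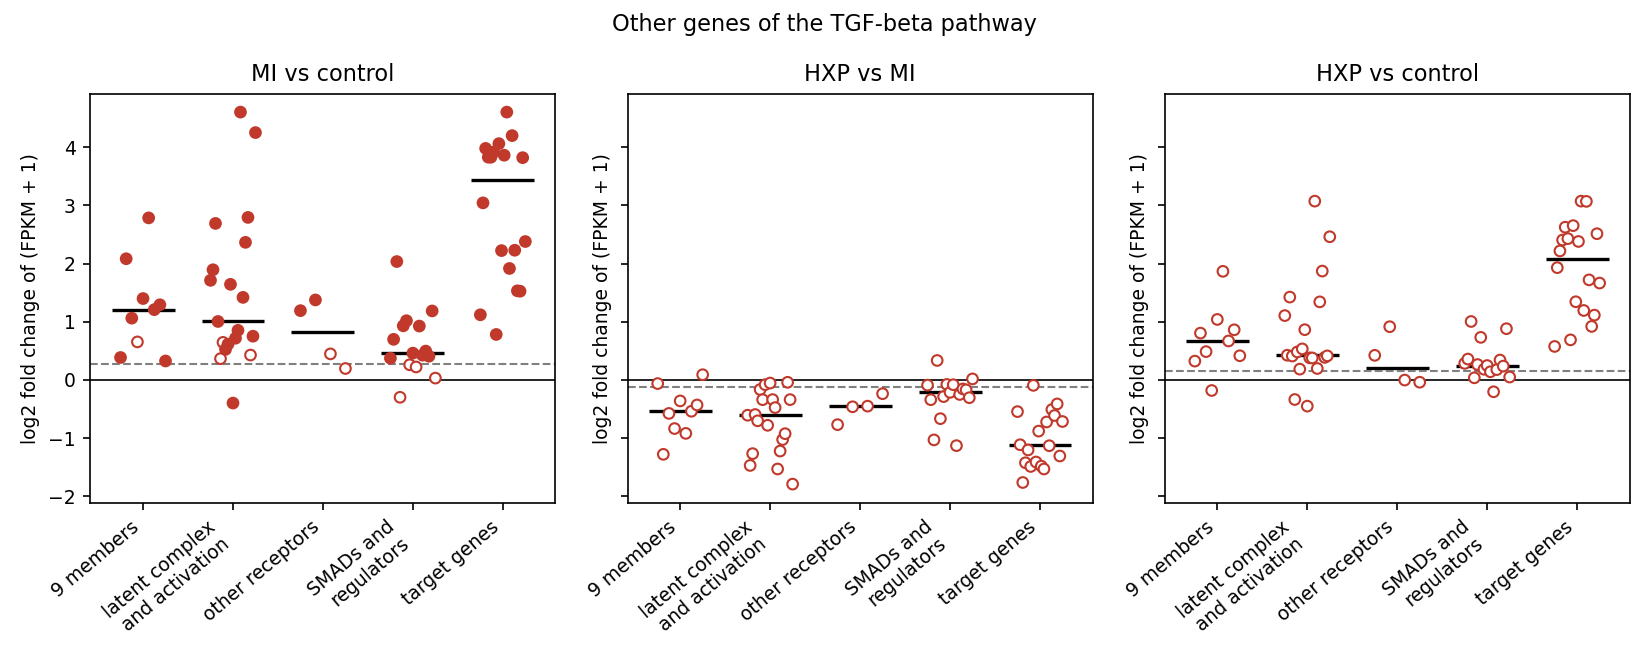
Fitted log2 fold change of (FPKM + 1) on the vertical axis for the 9 genes and 4 lists of other pathway genes, 1 point a gene, in the 3 comparisons, filled where limma called the gene, with a bar at the median of each list and a dashed line at that of all genes. Target genes stand highest in MI against control, with a median of 3.43, and no point is filled in the other panels.

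The 9 genes also varied together within the groups. After the group mean of log2(FPKM + 1) was taken off, Pearson's r over the 18 libraries ran from 0.53 (Tgfb1 with Tgfbr3) to 0.99 (Tgfb3 with Tgfbr2) for the 36 pairs, with Tgfbr3 and Ltbp1 the loosest members. The points share library, depth and tissue make-up, so these values only describe the libraries. Among other genes at a mean of 1 FPKM or more, Tgfb3 was most like Fbln2, Scpep1 and Timp2 (0.99 each) and Tgfbr2 most like Scpep1 (0.99), Tgfb3 and Sh3d19. Ltbp3 was most like Col16a1, Pld3 and Dap (0.99 each), Tgfbr1 most like Kif13b, Fn1 and Col14a1 (0.97 to 0.98), and Tgfb2 most like Gpr39, Selenon and Lima1 (0.98 each). Tgfb1 sat with other genes, Nfkb2 (0.99), Dtx2 (0.98) and Tnip1 (0.97), and Smad7 with Atp9b, Nab2 and Smad6 (0.96 to 0.97). Ltbp1 was most like Ino80, Glg1 and Zrsr1 (0.93 each) and Tgfbr3 most like B3gntl1 and Map3k1 (0.91 each).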

How the data were processed

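The authors deposited 1 table for every library, listing 34150 Ensembl gene IDs with 1 value each. The unit of the deposited values was read as FPKM from their steps, since it is not named per the file headers: multiplied by merged exon length, values fell within 0.1 of a whole read for 98.4% to 98.8% of 3950 to 5416 values checked per library. The submitters' processing notes name GRCm38 and limma, without a role for either. Aligner, counting tool, use of strand and annotation were not given in the sources used here. IDs were matched to GENCODE M21 (34097 matched, 53 not), and promoter sequences come from RefSeq.

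The depth of 75.6 to 81.0 M reads was recovered from the steps, and served only for read shares and 1 alternative. Genes averaging 0.5 FPKM or more (13710) were analysed as log2(FPKM + 1), which compresses changes of genes near 1 FPKM. They were fitted in 1 model with 3 groups by limma 3.58.1 (R 4.3.3, trend on), with Benjamini-Hochberg adjustment over all genes, called below 0.05, two-sided. Shares were compared by exact permutation tests in Python 3.11.15 with numpy 2.4.6, adjusted over 21 tests. Their code was set against scipy 1.17.1 on random values. The fit was tested on simulated data. Confidence intervals are at 95%, unadjusted. With each library counted as a separate mouse, the p-values measure the spread between mice together with that of dissection and library preparation. MI 1 and MI 2, the most alike pair, were counted separately as labelled. They differed by more than counting noise, which does not show that they are separate hearts, and they were also averaged as an alternative.

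The members and lists were chosen with earlier results of these data known. Named from the lists were, in each comparison, up to 3 genes of each sign with the smallest p among those called, or the 2 with the smallest p where none was. For likeness the 3 other genes with the highest r were named. Some genes that these rules name are not reported here. Other settings were quantile, median-ratio and non-mitochondrial scaling, no filter or a minimum of 5 FPKM, limma with a robust prior, a pseudocount of 0.1, fits of only the groups compared, a replicate block, the library run as a covariate, MI 1 and MI 2 averaged, and leaving out libraries. Chosen after seeing the data were a correction for G and C content (lowess, span 0.3), voom on recovered reads, the run of 10 libraries alone, coding transcript lengths and the list counts without HXP 6, HXP 3 or MI 5.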

Additional observations from a re-analysis of the deposited data

Results flagged for a closer look

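In 48 groups of 6 libraries (the FPKM of the 9 genes and the 7 shares, in each group), 3 held a library whose gap to its nearest neighbour was over 0.625 of the range of the group, where chance gives about 1 in 20 groups. Ltbp1 stood at 9.05 FPKM in MI 5, with the next MI library at 6.86 FPKM. The share of Tgfbr1 in receptor FPKM was 4.24% in HXP 6, with the next HXP library at 20.5%. The share of Ltbp1 in latent binder FPKM was 38.1% in MI 6, with the next MI library at 18.7%.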

How the results depend on the processing

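Over all settings, 829 fold changes of single genes kept their direction and side of the threshold, 38 lost the call, 28 gained one and 14 changed sign, and for the shares these counts were 488, 19, 7 and 11. In MI against control, 8 of the 9 genes passed, 0 without MI 4 and MI 5 and 1 in the run of 10 libraries. Without 1 library at a time 5 to 9 passed, the 5 without MI 5. Of all 13710 genes, 2529 (without MI 5) to 6377 (without HXP 3) were then called higher. With MI 1 and MI 2 averaged 7 passed, where 3942 of all genes were called higher and Tgfbr3 did not pass (limma adjusted p = 0.0845). With the library run as a covariate 7 passed, where 3944 of all genes were called higher. In HXP against MI 0 passed throughout. In HXP against control the count of 0 became 2 under quantile normalization and under median-ratio scaling, 1 under non-mitochondrial scaling and under the correction for G and C content, 8 without HXP 5 and HXP 6, and 0 to 8 without 1 library, the 8 without HXP 6. Of the 21 shares 9 passed, 9 to 12 without 1 library, and 0 in the run of 10, a design too small to pass after adjustment.

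With the replicate number as a block, 8, 0 and 0 genes passed in MI against control, HXP against MI and HXP against control. Of all 13710 genes, 5201, 0 and 0 were called higher in these comparisons and 409, 1 and 1 lower. In MI Tgfb1 then passed (limma adjusted p = 0.0412) and Tgfbr3 did not (0.0508). Under the block 0 shares passed, where the sign-flip test of 6 pairs can pass after adjustment only if many shares reach its lowest p. The numbers did not pair the libraries: 5 of 18 same-numbered pairs had a correlation over 0.1, from -0.31 to 0.64.

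Signs changed where differences were near 0, and the cause was not tested. Tgfbr3 in MI against control was -0.004 under quantile normalization and -0.006 under median-ratio scaling. In HXP against MI, Tgfb2 was 0.018 without HXP 5 and HXP 6 and 0.010 in the run of 10, Tgfbr3 was -0.002 without MI 4 and MI 5, and Ltbp1 was 0.120 under quantile, 0.076 under median-ratio and 0.005 under non-mitochondrial scaling, 0.059 without HXP 5 and HXP 6, 0.082 after the correction for G and C content and -0.141 to 0.016 without 1 library. Tgfb1 in HXP against control was 0.228 without HXP 5 and HXP 6 and -0.377 to 0.038 without 1 library (0.038 without HXP 6). The share of Tgfb2 in HXP against control was -2.50 points without HXP 5 and HXP 6, -0.3899 in the run of 10, -1.23 to 0.893 without 1 library and -0.022 as a log2 ratio, and that of Tgfbr1 was -0.07903 as a log2 ratio and -0.132 to 4.16 points without 1 library. With a mean of at least 5 FPKM, Tgfb1, Tgfb2 and Smad7 were not tested.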
